A study of Mus musculus with 8 samples.

Results

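The receptors described here were 9 chemoattractant receptors of macrophages: *Ccr1*, *Ccr2*, *Ccrl2*, *Cxcr4*, *Cx3cr1*, *C5ar1*, *C3ar1*, *Fpr1* and *Fpr2*. They were taken by symbol from the 18635 genes of the deposited RNA-seq table, and all 9 were found. The study asked how the loss of PHGDH, the enzyme that opens the serine synthesis pathway from glucose, changes macrophages that have met a tumor, including the programs that draw them into tumors. The table held 8 libraries of bone marrow-derived macrophages (BMDMs) exposed for 24 h to medium conditioned by AE17, a mouse mesothelioma line (AE17-TCM). BMDMs treated in this way are called tumor-educated macrophages (TEMs).

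The control group was 4 libraries of *Phgdh* fl/fl TEMs, which carry loxP-flanked *Phgdh* and no Cre. The Cre group was 4 libraries of TEMs with the genotype *Phgdh* fl/fl *Cx3cr1*-Cre, where Cre is expressed from the *Cx3cr1* locus and recombines *Phgdh* in cells of the myeloid lineage. Both groups came from young adult littermates on a C57BL/6 background, were grown in medium conditioned by L929 cells and received the same TCM. No library with Cre and unfloxed *Phgdh* was analysed here, so the loss of *Phgdh*, Cre itself and its place in *Cx3cr1* cannot be told apart for any receptor below. The series calls the 4 libraries of a group biological replicates, and whether each came from a separate mouse is not given, so the p-values measure the spread between these libraries.

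Chemoattractant receptors are seven-helix proteins that couple mainly to Gi proteins and turn a gradient of a chemokine, a complement fragment or a formylated peptide into directed movement. CCR2 and CX3CR1 are known for the traffic of monocytes, CCR1 for recruitment to inflamed tissue, and CXCR4 for retention in the bone marrow through CXCL12. C5aR1 and C3aR are the receptors of the complement fragments C5a and C3a, FPR1 and FPR2 sense formylated peptides and other danger signals, and CCRL2 is an atypical receptor that binds chemerin without signalling.

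The libraries held between 38219563 and 47027420 reads, recovered from the deposited values as whole numbers. *Phgdh* itself lay between 105 and 129 normalized counts in the controls and between 14.2 and 35.3 in the Cre group, with a log2 fold change of -2.15 (SE 0.21, adjusted p = 5.1e-08 by limma). Values are normalized counts, which are reads divided by a size factor of the library, and fold changes are Cre over control on the log2(normalized count + 1) scale. Of 10 macrophage markers, all 10 were detected, with a summed level of 1044828 to 1135914 normalized counts in the controls and 1024755 to 1101135 in the Cre group, most of it from *Lyz2*. Singly, 6 of the 10 passed the test: *Fcgr1* (log2 fold change -0.40), *Aif1* (-0.33), *Cd14* (-0.32), *Itgam* (-0.19) and *Adgre1* (-0.08) fell, and *Mrc1* (0.28) rose. These markers were named after their values were seen. The monocyte list, of which 6 of 8 genes were in the table, summed to 1554 to 1800 normalized counts in the controls and 1033 to 1148 in the Cre group. Its difference lay mainly in *F13a1*, a coagulation factor subunit that macrophages also express, while *Ly6c2*, which defines inflammatory monocytes, stayed between 0 and 7.3 normalized counts. The lymphocyte list, with 3 of 10 genes in the table, summed to 207 to 267 and to 145 to 180 normalized counts, and the neutrophil list, with 3 of 11, to 482 to 599 and to 592 to 645. The dendritic cell list, with 5 of 7 genes in the table, summed to 27.9 to 51.5 normalized counts in the controls and 50.6 to 72.0 in the Cre group, and no tested gene of the mast cell and eosinophil or the stromal list passed the test. The part of these markers in the receptor results was not tested. In bulk RNA, fewer cells of a type and less RNA per cell cannot be told apart.

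The sequences before the RefSeq starts of the complement and formyl peptide receptors are shown as examples. The members of each of these pairs changed unequally between the groups, as described below. So did *Ccr2* and *Ccr1*, whose sequences are not printed. Whether the sequences bear on these changes was not tested. Each sequence is the 250 bases before the RefSeq start in GRCm38.p6, the build of the deposited data, read 5′ to 3′ on the strand of the gene. They lie at chr6:122856158-122856407 (minus strand) for *C3ar1*, chr7:16259339-16259588 (minus) for *C5ar1*, chr17:17883940-17884189 (minus) for *Fpr1* and chr17:17887574-17887823 (plus) for *Fpr2*. GENCODE places the start of *C5ar1* further upstream, so 202 of its 250 bases lie within the annotated gene, 28 of them in an exon. Capitals mark matches, on either strand, to 5 motifs chosen after the values were seen.
C3ar1: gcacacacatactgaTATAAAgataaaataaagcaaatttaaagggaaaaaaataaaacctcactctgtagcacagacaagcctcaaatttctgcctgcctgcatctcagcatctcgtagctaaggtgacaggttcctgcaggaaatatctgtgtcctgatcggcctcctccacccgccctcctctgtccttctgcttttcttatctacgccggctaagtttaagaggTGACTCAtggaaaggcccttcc
C5ar1: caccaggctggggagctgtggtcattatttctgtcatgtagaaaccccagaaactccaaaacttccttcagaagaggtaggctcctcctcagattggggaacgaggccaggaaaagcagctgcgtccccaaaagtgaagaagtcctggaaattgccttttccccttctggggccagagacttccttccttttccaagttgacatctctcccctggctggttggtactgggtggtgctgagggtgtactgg
Fpr1: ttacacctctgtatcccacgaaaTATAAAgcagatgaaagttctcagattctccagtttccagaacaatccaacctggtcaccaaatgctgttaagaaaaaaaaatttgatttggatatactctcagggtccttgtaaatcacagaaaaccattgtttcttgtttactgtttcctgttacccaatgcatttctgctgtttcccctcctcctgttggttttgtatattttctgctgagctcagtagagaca
Fpr2: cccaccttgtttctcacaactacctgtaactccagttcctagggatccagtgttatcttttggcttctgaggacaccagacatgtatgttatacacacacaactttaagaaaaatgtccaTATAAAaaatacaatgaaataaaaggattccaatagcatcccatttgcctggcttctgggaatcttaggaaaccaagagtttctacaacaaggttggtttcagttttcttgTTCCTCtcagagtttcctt
The motifs were the PU.1 core GAGGAA, the AP-1 site TGANTCA, the C/EBP core TTGCNNAA, the NF-kappaB site and the TATA box TATAAA. The AP-1 letters lie just before the start of *C3ar1*, and 6.75% of 32851 mouse promoter windows hold them. A PU.1 core lies just before the start of *Fpr2* and another before *Ccr1*, against 23.3% of all windows. TATA letters were found in 4 of the 9 receptors, *Cxcr4*, *C3ar1*, *Fpr1* and *Fpr2*, against 12.4% of all windows. They began 32 and 30 bases before the start of *Cxcr4*, 235 before *C3ar1*, 227 before *Fpr1* and 130 before *Fpr2*. The C/EBP and NF-kappaB letters, present in 9.56% and 1.21% of all windows, were found in none of the 9 windows. Of these windows, that of *Cx3cr1* lies wholly in an annotated exon and that of *Ccr2* for 233 of its 250 bases. A match is only a description of these letters.

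All 9 receptors passed the filter of a mean of at least 10 normalized counts, as did 13629 genes in all. Between the groups, 7 of the 9 passed the test, 5 being lower in the Cre group and 2 higher. Among all genes tested, 41.0% passed, 20.3% lower and 20.8% higher. This background includes genes of lower counts than any of the 9. In a fit of the 10515 genes with a mean of at least 100, which all 9 reached, 2624 passed higher and 2657 lower. The groups did not overlap for the same 7 receptors, against 36.7% of all genes tested. The median log2 fold change of the 9 receptors was -0.21 and their median absolute log2 fold change 0.29, beside -0.0018 and 0.12 over all genes tested.

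**Figure D1:**
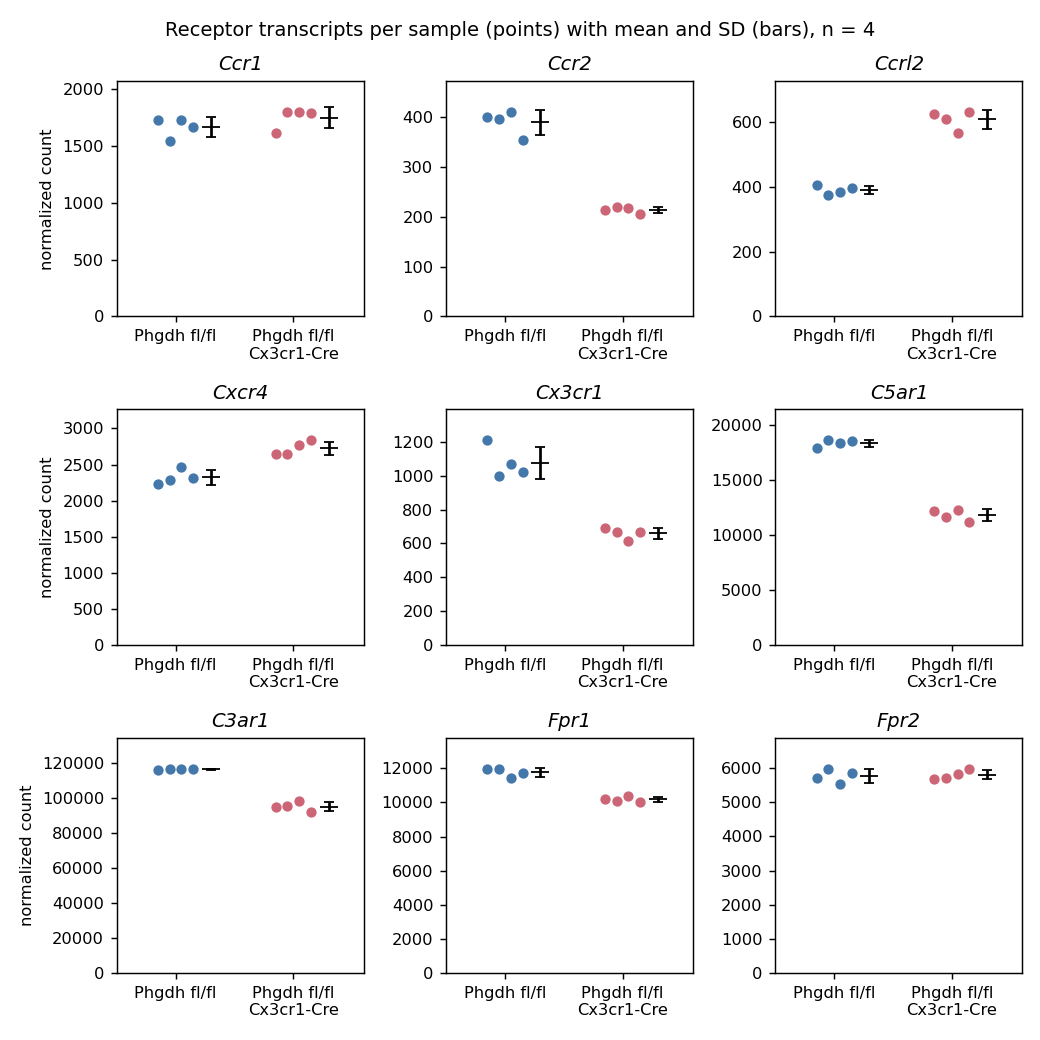
Normalized counts of the 9 receptors in each of the 8 libraries, one panel per receptor, with the mean and SD of each group of 4. The groups overlap for *Ccr1* and *Fpr2* and stand apart for the other 7.

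Of the pair of CC chemokine receptors among the 9, *Ccr2* (ENSMUSG00000049103, chr9:124101950-124113557, mm10) fell and its neighbour *Ccr1* did not pass the test. *Ccr2*, the receptor of CCL2 on monocytes, was at 400, 395, 410 and 353 normalized counts in the controls and at 213, 219, 218 and 206 in the Cre group. All 4 Cre libraries were lower than all 4 controls. The log2 fold change was -0.86 (SE 0.07, adjusted p = 3.0e-09 by limma), and 2.08% of the genes tested had a larger absolute change.

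*Ccr1* (ENSMUSG00000025804, chr9:123962124-123968692), a receptor of CCL3 and CCL5, was at 1728, 1539, 1731 and 1667 normalized counts in the controls and at 1612, 1800, 1794 and 1789 in the Cre group. The first Cre library was low beside the other three, and the groups overlapped. The log2 fold change was 0.07 (SE 0.04, adjusted p = 0.20), with a 95% interval of the fold from 0.987 to 1.12. Without the first Cre library it was 0.11 (adjusted p = 0.044), so this call rests on that library.

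Within a library, the ratio of *Ccr2* to *Ccr1* normalized counts was 0.231, 0.257, 0.237 and 0.212 in the controls and 0.132, 0.122, 0.121 and 0.115 in the Cre group. The change of *Ccr2* thus differed from that of *Ccr1*, by -0.93 on the log2 scale. The exact two-sided permutation p was 0.029, the smallest that 4 against 4 libraries allow, and 0.029 after adjustment over the 3 ratios tested.

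*Cx3cr1* (ENSMUSG00000052336, chr9:119901616-120069879) is the receptor of fractalkine and the locus that carries Cre on one allele of the Cre group. It was at 1210, 1000, 1067 and 1025 normalized counts in the controls and at 690, 667, 614 and 668 in the Cre group. Every Cre library lay below every control. The log2 fold change was -0.70 (SE 0.05, adjusted p = 1.9e-09), a fold of 0.614. For this gene the altered allele is itself a difference between the groups, and its part cannot be told apart from that of *Phgdh*.

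*Ccrl2* and *Cxcr4* were the receptors that rose. *Ccrl2* (ENSMUSG00000043953, chr9:111054486-111057519) was at 403, 375, 382 and 394 normalized counts in the controls and at 622, 609, 565 and 630 in the Cre group. The groups were far apart beside their spread, with a log2 fold change of 0.64 (SE 0.05, adjusted p = 7.3e-09).

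*Cxcr4* (ENSMUSG00000045382, chr1:128588199-128592293) was at 2227, 2285, 2468 and 2315 normalized counts in the controls and at 2647, 2647, 2768 and 2837 in the Cre group. The lowest Cre libraries were above the highest control. The log2 fold change was 0.23 (SE 0.03, adjusted p = 1.4e-05), and 25.5% of the genes tested changed by more.

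Both complement receptors fell. *C5ar1* (ENSMUSG00000049130, chr7:16246743-16259540) was at 17911, 18628, 18337 and 18537 normalized counts in the controls and at 12171, 11670, 12294 and 11162 in the Cre group. The separation was many times the spread within a group. The log2 fold change was -0.64 (SE 0.03, adjusted p = 1.8e-13), the smallest p of the 9 receptors.

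*C3ar1* (ENSMUSG00000040552, chr6:122847138-122856161) was at 115802, 116479, 116477 and 116612 normalized counts in the controls and at 94524, 95457, 98184 and 92067 in the Cre group. The controls lay close together and above every Cre library. The log2 fold change was -0.29 (SE 0.02, adjusted p = 2.3e-09), but it was -0.057 (adjusted p = 0.066) after quantile normalization, which ends the call for this very abundant gene.

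*C5ar1* fell more than *C3ar1*. The ratio of their normalized counts was 0.155, 0.160, 0.157 and 0.159 in the controls and 0.129, 0.122, 0.125 and 0.121 in the Cre group. No Cre library reached the controls, and the difference was -0.34 on the log2 scale (exact permutation p = 0.029, adjusted 0.029). It was -0.56 after quantile normalization, where the log2 fold change of *C5ar1* was -0.61 and that of *C3ar1* only -0.057. That larger value thus came with the smaller change of *C3ar1*.

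The formyl peptide receptors differed from each other. *Fpr1* (ENSMUSG00000045551, chr17:17876471-17883940) was at 11972, 11942, 11414 and 11704 normalized counts in the controls and at 10196, 10106, 10355 and 10027 in the Cre group. All Cre libraries were lower, with a log2 fold change of -0.21 (SE 0.02, adjusted p = 2.3e-07).

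*Fpr2* (ENSMUSG00000052270, chr17:17887824-17893952) starts 3.88 kb from *Fpr1* and is read in the other direction. It was at 5703, 5975, 5533 and 5850 normalized counts in the controls and at 5680, 5719, 5820 and 5979 in the Cre group. The groups lay over each other, with a log2 fold change of 0.01 (SE 0.03, adjusted p = 0.83) and a 95% interval of the fold from 0.968 to 1.05. Of the 1295 windows of 75 bases in its annotated transcripts, 271 also occur in *Gm5966* or *Fpr3*, so reads there could be split or dropped in counting. The corresponding share was 1.16% for *Ccr2* and 0.11% for *Cx3cr1*, and no window was shared for the other 6 receptors. By annotated span, *Fpr3* also overlaps *Fpr2* by 6101 bases on the same strand. The long span of *Cx3cr1* overlaps *Gorasp1* (12309 bases), *Csrnp1* (13496) and *Xirp1* (9844) on its strand, and other genes on the opposite strand. The part of these overlaps in the counts was not tested.

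The ratio of *Fpr1* to *Fpr2* normalized counts was 2.10, 1.999, 2.06 and 2.001 in the controls and 1.80, 1.77, 1.78 and 1.68 in the Cre group. Every Cre library had the lower ratio, by -0.22 on the log2 scale (exact permutation p = 0.029, adjusted 0.029).

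**Figure D2:**
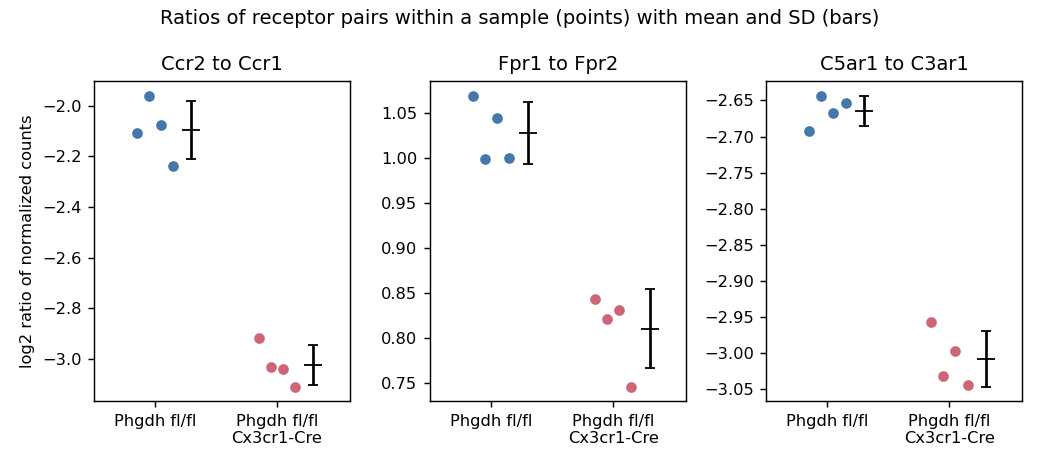
Ratio of the normalized counts of paired receptors within each library, for *Ccr2* to *Ccr1*, *Fpr1* to *Fpr2* and *C5ar1* to *C3ar1*. In each pair the 4 Cre libraries lie below the 4 controls.

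Levels were compared between receptors as FPKM computed from the recovered reads and the summed exon length of each gene. In the controls the order was *C3ar1* at 624 ± 1.46 FPKM (SD, n = 4), *Fpr1* at 205 ± 4.84, *C5ar1* at 165 ± 2.78 and *Fpr2* at 103 ± 3.48. Below them came *Cxcr4* at 29.7 ± 1.27 FPKM, *Ccr1* at 13.6 ± 0.726, *Cx3cr1* at 5.51 ± 0.487, *Ccrl2* at 3.45 ± 0.114 and *Ccr2* at 1.33 ± 0.0863. The receptors of complement and formyl peptides were thus above those of chemokines, and no neighbours in this order overlapped between libraries. The highest level was 469 times the lowest.

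In the Cre group, *C5ar1* at 107 ± 4.71 FPKM (SD, n = 4) and *Fpr2* at 104 ± 2.40 overlapped. *Ccrl2* at 5.44 ± 0.252 FPKM stood above *Cx3cr1* at 3.41 ± 0.162, the reverse of their order in the controls. *Ccr2* remained the lowest at 0.738 ± 0.0216 FPKM, and the span from highest to lowest was 698 times. The level of *Ccr2* is divided by 6760 bases of exon, which include long alternative exons.

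**Figure D3:**
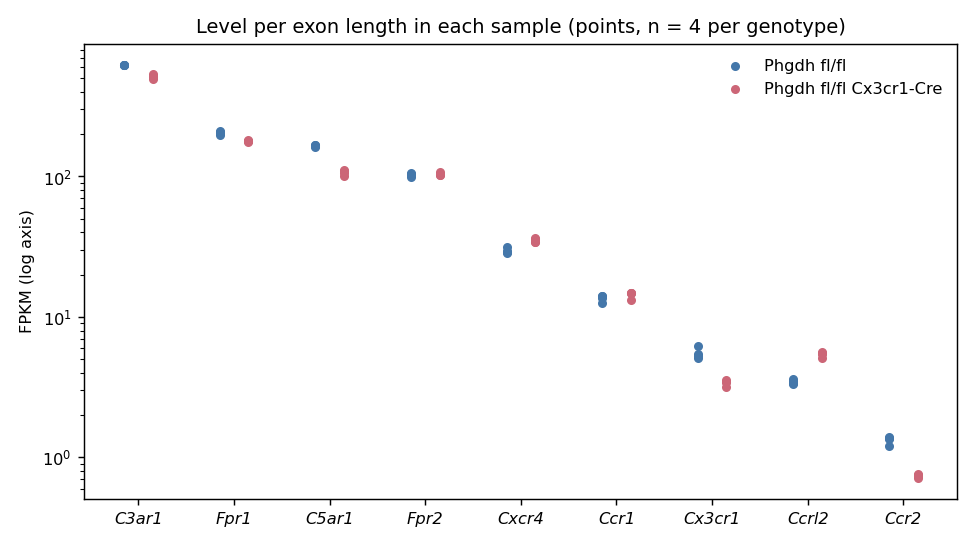
FPKM of the 9 receptors in each library on a log axis, by group. *C3ar1* is the highest and *Ccr2* the lowest in both groups, and *Ccrl2* and *Cx3cr1* change places.

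Of 37 other chemoattractant receptors listed, 19 were in the table and 14 passed the filter. Of these, 9 passed the test, 4 higher and 5 lower (64.3%, against 41.0% of all genes tested). In the fit of the 10515 genes with a mean of at least 100, 8 of them passed, beside 2624 genes higher and 2657 lower. *Ccr3*, the eotaxin receptor, was at 805, 800, 856 and 812 normalized counts in the controls and at 428, 394, 519 and 446 in the Cre group. The groups did not overlap (log2 fold change -0.88, SE 0.06, adjusted p = 7.9e-10). *C5ar2*, the other C5a receptor, also fell, with a log2 fold change of -0.48 (adjusted p = 2.1e-06). *P2ry12*, an ADP receptor, rose from between 44.8 and 56.7 to between 75.4 and 84.6 normalized counts, a log2 fold change of 0.61 (SE 0.14, adjusted p = 0.0012). *Ccr7*, the receptor that leads dendritic cells to lymph nodes, had a log2 fold change of 0.39 and did not pass (adjusted p = 0.13).

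**Figure D4:**
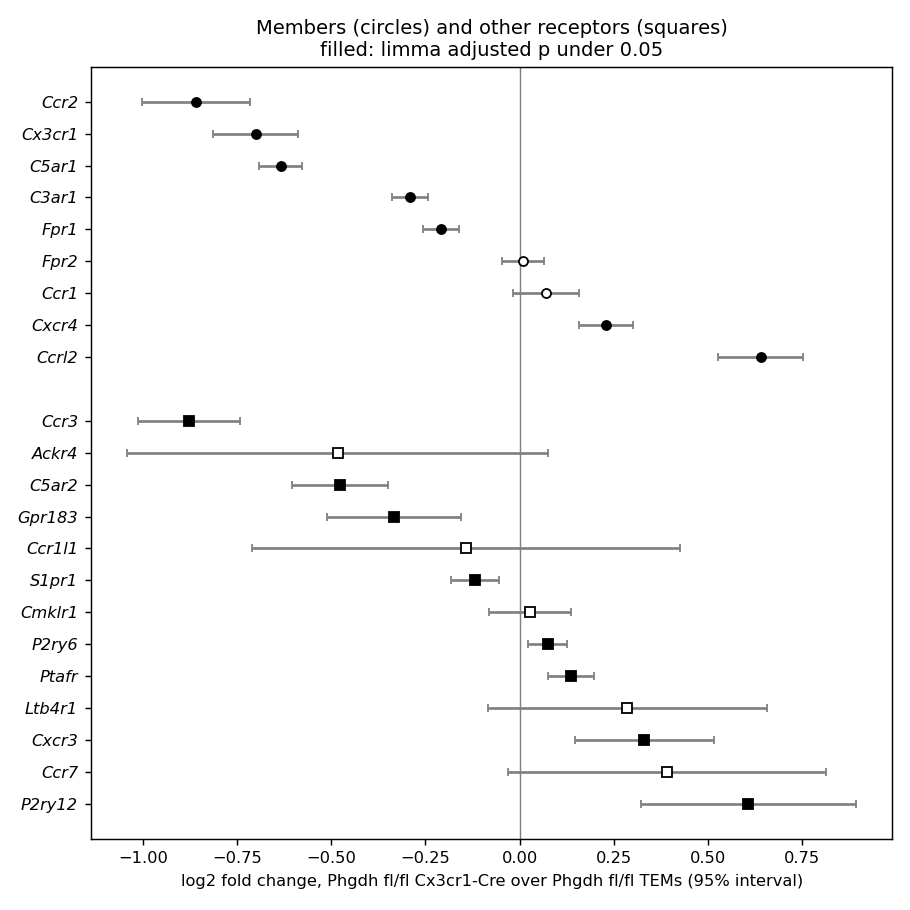
Log2 fold change (Cre over control) with its 95% interval for the 9 receptors and for other chemoattractant receptors that were tested. *Ccr2* and *Ccr3* lie farthest below 0. Among the 9, the intervals of *Ccr1* and *Fpr2* include 0, as do those of *Ccr7* and some further receptors outside the 9.

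*Ccr1*, *Ccr3* and *Ccr2* are neighbours on chromosome 9, with starts 3899, 3952 and 4032 kb from that of *Cx3cr1*, where Cre sits. *Ccrl2* lies 9012 kb away on the other side. Of 75 genes tested within 5 Mb of *Cx3cr1*, 28 passed the test, 18 higher and 10 lower, which is 37.3% against 41.1% of the 13553 genes tested elsewhere. Leaving out the receptor genes, 25 of 70 passed, 18 of them higher. Over this whole window, genes passed at a share near the background, with *Ccr2* and *Ccr3* among the lower ones. Whether the place of *Ccr2* and *Ccr3* near *Cx3cr1* has a part in their changes was not tested.

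**Figure D5:**
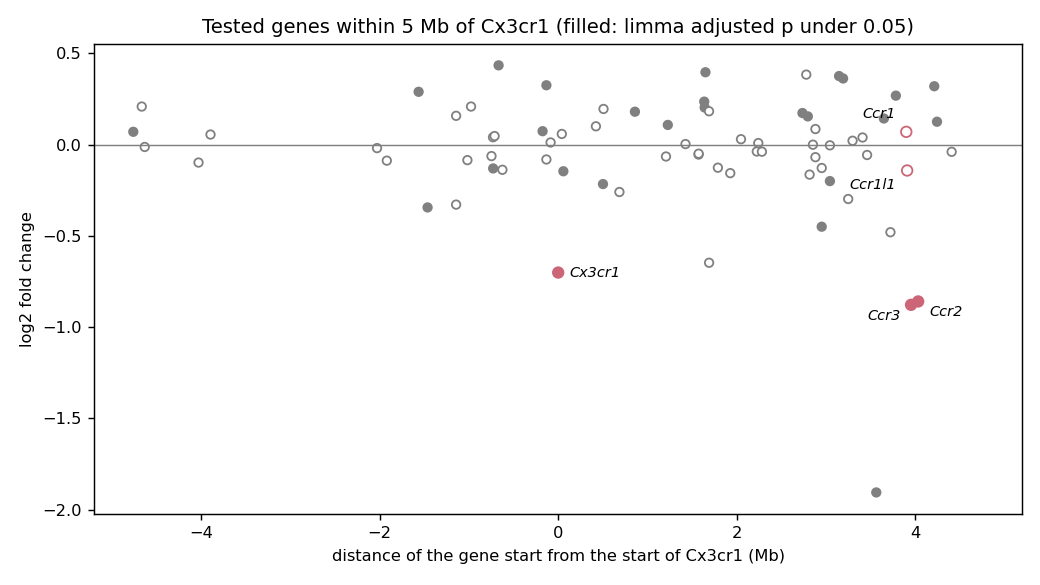
Log2 fold change (Cre over control) of genes tested within 5 Mb of the start of *Cx3cr1*, by distance in Mb, with receptor genes named. Genes higher and lower in the Cre group are mixed along the region, and *Ccr2* and *Ccr3* are among the lower ones.

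The ligands of the 9 receptors were described by a list of 18 genes, of which 14 were tested. Of these, 10 passed, 7 higher and 3 lower (71.4%, against 41.0% of all genes tested), and their median log2 fold change was 0.093. In the fit of the 10515 genes with a mean of at least 100, 9 ligands passed, beside 2624 genes higher and 2657 lower. *Ccl5*, a ligand of CCR1, rose from between 6011 and 6494 to between 9481 and 10013 normalized counts (log2 fold change 0.63, adjusted p = 2.6e-13). *Ccl12*, a ligand of CCR2, rose from between 58.2 and 73.6 to between 110 and 151 (log2 fold change 0.93, adjusted p = 4.6e-06). *Ccl2*, the main ligand of CCR2, was named after its values were seen. It overlapped between the groups, with a log2 fold change of 0.05 (adjusted p = 0.21).

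As a description over the 8 libraries, which share the group difference, the patterns most like that of *Ccr2* among genes with a mean of at least 100 normalized counts were those of *Ccnd1* (Pearson r = 0.995), *Hmga2* (0.994) and *Dmpk* (0.994). Those most like *Cxcr4* were *Togaram1* (0.991), *Serpini1* (0.990) and *Pnrc1* (0.986).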

How the data were processed

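RNA-seq was analysed for 8 libraries, 4 per group as given by the sample titles. Per the labels and the study's methods, the authors aligned single-end reads of a strand-specific kit to mm10 with TopHat2, counted genes with HTSeq 0.6 and used DESeq2. The strand setting of the counting and any batch are not given in the sources used here. The deposited values are a signal of normalized counts, reads divided by a library's size factor. The deposited table also holds the authors' comparison (log2 fold changes with their errors, Wald scores, p-values and adjusted p-values), which was not used.

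Whole reads were recovered for 100% of values (within 0.001), giving 38219563 to 47027420 reads per library. The table holds genes with at least 10 reads in all. The test was limma 3.58.1 (R 4.3.3) with trended variances on log2(normalized count + 1), for genes with a mean of at least 10, with Benjamini-Hochberg adjustment over 13629 genes and a threshold of 0.05. edgeR 4.0.16 and DESeq2 1.42.0 on the recovered reads, other pseudocounts, filters and scalings, a replicate block and leaving out each library were alternatives. Single ratios were tested by exact permutation over 70 labelings. Coordinates are from GENCODE for mm10 (18629 of 18635 genes matched) and promoters from RefSeq. The methods were tested on simulated data with the same dispersion for all genes. That test does not cover every spread and size of change in these data.

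The members and gene lists were chosen with earlier results of these data known. Named genes were all members, *Phgdh*, listed genes past the threshold with an absolute log2 fold change of at least 0.5 and a mean of at least 50 (at most 8 per list), other receptors with a mean of at least 10, and the 3 genes most correlated with *Ccr2* and with *Cxcr4*. Some further genes were named after their values were seen, as stated where they appear. No protein sequences were used here, and 1 listed receptor is counted but not reported or plotted.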

Additional observations from a re-analysis of the deposited data

Results flagged for a closer look

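Among 52 groups of 4 libraries tested for a library far from the others, 3 stood out, and chance marks about 5% of groups. *Ccr1* was at 1612 normalized counts in the first Cre library, with the other Cre libraries between 1789 and 1800. *C3ar1* was at 115802 normalized counts in the first control library, with the other controls between 116477 and 116612. *Ccr1l1*, a receptor gene related to *Ccr1*, was at 12.9 normalized counts in the second control library, with the other controls between 21.4 and 22.7.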

How the results depend on the processing

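Each of the 7 receptor calls kept its direction and its side of the threshold under every alternative run, except *C3ar1* after quantile normalization (log2 fold change -0.057, adjusted p = 0.066), which left 4 receptors lower. The size of the p-values depended on the method. By limma without trended variances, adjusted p was 6.6e-05 for *C5ar1* and 0.0048 for *Cxcr4*, while DESeq2 gave 1.5e-104 for *C5ar1*. *Fpr2*, which did not pass, turned to -0.015 under quantile normalization and ranged from -0.011 to 0.026 when single libraries were left out, being below 0 without the third control (-0.011) and without the fourth Cre library (-0.0059). *Ccr1* ranged from 0.032 to 0.11 when single libraries were left out and passed without the first Cre library. edgeR called 5608 genes and DESeq2 5066, and scaling to total reads, the alternative that moved the median log2 fold change of all genes most, moved it by 0.015.

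The replicate numbers gave no clear pairing of the libraries. Deviations of same-numbered libraries correlated at -0.11, 0.19, 0.22 and -0.09, and 2 of 4 controls correlated best with their own number. So few values cannot decide whether the libraries were paired. With the replicate number as a block, limma called 5597 genes and no receptor call changed. The ratios of *Ccr2* to *Ccr1*, *Fpr1* to *Fpr2* and *C5ar1* to *C3ar1* were -0.93, -0.22 and -0.34 on the log2 scale with the block, with an exact adjusted p of 0.125, the smallest that 4 pairs allow.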

Other observations

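Of 39 genes of Gi coupling, desensitization and migration signalling listed behind these receptors, 36 were tested and 26 passed, 9 higher and 17 lower, a share of 72.2% against 41.0% overall. The median of their log2 fold changes was -0.063. Their median absolute log2 fold change was 0.092, below the 0.12 of all genes tested. The 41.0% includes genes of lower counts than most of this list. In the fit of the 10515 genes with a mean of at least 100, 25 of the list passed, beside 2624 genes higher and 2657 lower. *Rgs1*, which shortens Gi signalling, rose from between 10501 and 11366 to between 15330 and 16900 normalized counts (log2 fold change 0.59, adjusted p = 1.8e-12 by limma). *Grk3*, a kinase that desensitizes receptors, rose by 0.52 on the log2 scale (adjusted p = 1.1e-06), and *Rgs16*, a further regulator of G protein signalling, fell by 0.76 (adjusted p = 6.3e-05).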
